A study of Mus musculus with 24 samples.

Results

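Ionotropic and metabotropic glutamate receptors and the proteins that accompany them at the synapse were examined in the hippocampus of mice whose fathers or grandfathers had eaten a methyl donor-rich diet. The group was defined by gene symbol and holds 37 genes of the 19751 that could be named on the arrays. It comprises 4 AMPA, 7 NMDA and 5 kainate receptor subunits, the delta receptor Grid1, 7 metabotropic receptors, 6 TARPs, 2 cornichons, 3 AMPA receptor partners (Shisa6, Shisa9 and Gsg1l) and the kainate receptor partners Neto1 and Neto2. All 37 were measured, by 51 probes, and each gene was read from its brightest probe with its other probes beside it. Males received either a control diet (CD) or a methyl donor diet (MD) for 6 weeks before mating. The MD was based on the CD formula, with supplements. Per kg of chow these were 150 mg zinc, 1.5 mg vitamin B12 and 15 mg folic acid. Methionine was added at 7.5 g, and choline and betaine at 15 g each. CD F1 and MD F1 mice were offspring of these C57BL/6J males and 129S6/SvEv females, and are labelled as congenic hybrids of both strains. CD F2 and MD F2 mice came from F1 males of either line mated with CD F1 females, and are labelled as mixed hybrids, so that F2 animals were not genetically uniform. No offspring ate the MD. The labels give an age of 4 weeks, whereas the study's text calls the mice adult. There were 6 arrays per group and 24 in all, each hybridised with RNA pooled from 4 mice, so differences between single animals were not measured.

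Glutamate is the main excitatory transmitter of the hippocampus. AMPA receptors carry most of the fast synaptic current, NMDA receptors admit calcium when the neuron is already depolarised and trigger many forms of long-term potentiation, and kainate receptors act on both sides of the synapse. Metabotropic receptors signal through G proteins, while TARPs, cornichons, Shisa proteins, Gsg1l and Neto proteins bind ionotropic receptors and modify their trafficking and gating.

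The median intensity of an array lay between 148 and 318, and between 27383 and 37013 spots per array were well above background. MD F1 replicate 6 had the lowest median intensity of the F1 arrays, 167, and its mean correlation with the other F1 arrays was 0.985, against at least 0.992 for the others. In F2, only 28000 spots of CD F2 replicate 6 and 27383 of MD F2 replicate 3 were well above background, and their mean correlations were 0.977 and 0.974, against at least 0.986 for the other F2 arrays. Each slide carried 4 arrays of a single generation, with CD and MD balanced on it. Markers of the hippocampal fields were present on every array, as were the cerebellar markers Pcp2 and Barhl1, while the cerebellar markers Gabra6 and Cbln3 were well above background on 4 and 1 of the 24 arrays. The mean level of 6 motile cilia genes ranged from 9.32 to 9.66 (log2 signal) in CD F1 and from 9.63 to 10.16 in MD F1, but from 8.59 to 9.72 in CD F2 and from 8.52 to 9.22 in MD F2. For 6 choroid plexus genes the ranges were 8.35 to 11.36, 8.56 to 12.57, 7.998 to 13.25 and 7.82 to 12.53 in the same order of groups. The Y-linked minus Xist level spanned -2.30 to -1.89 in CD F1 and -2.15 to 0.15 in MD F1, with the highest value on replicate 6. In F2, Xist was high on CD F2 replicates 3 and 5 and MD F2 replicate 6, and Ddx3y on the other arrays, so that F2 arrays were of a single sex. The part of the cilia, choroid plexus and sex differences in the results below was not tested beyond the fits that are given. In whole tissue, fewer cells of a type and less RNA per cell cannot be told apart.

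The first question was whether the paternal diet altered these genes in F1. Signals are given on the log2 scale after quantile normalisation within a generation, so that a difference of 1 is a doubling. No glutamate receptor gene passed a false discovery rate (FDR) of 0.1 in MD F1 against CD F1 (limma, adjusted over all 39429 probes), and the lowest FDR among them was 0.213. Across the array 0.0279% of probes were called. At an unadjusted p under 0.05, 5 of the 37 genes differed, against 13.6% of all genes. The NMDA subunit Grin2d and the kainate subunit Grik5 were higher (2 of 37, background 8.25%). Grin2b, the TARP Cacng7 and the cornichon Cnih3 were lower (3 of 37, background 5.33%). The median difference over the 37 genes was 0.00 on the log2 scale, against 0.02 over all genes, with 19 positive and 18 negative values. No gene had its MD F1 and CD F1 arrays fully apart, which was the case for 0.962% of all genes in the upward and 0.754% in the downward direction.

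The second question was whether a grandpaternal diet left a trace in F2. No member was called in MD F2 against CD F2, where the lowest FDR was 0.89, and no probe of the whole array was called (limma, 2192 of 39423 probes, or 5.56%, at an unadjusted p under 0.05). Only the NMDA subunit Grin3b had an unadjusted p under 0.05, 1 of 37 genes against a background of 5.59%, of which 2.81% in the same upward direction. The median difference was 0.01, equal to that of all genes to 2 decimals. When the diet effect was compared between the generations at the brightest probes, Grin2a alone had an unadjusted p under 0.05, with an FDR of 0.549. This was 1 of 37 genes, against a background of 8.04%, or 3.36% in the same downward direction. For this difference 0.0127% of all probes were called. For most members the 95% interval of the F2 effect was wide, as the plot of diet effects shows, so that moderate differences in either direction were not detectable with 6 arrays per group.

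**Figure D1:**
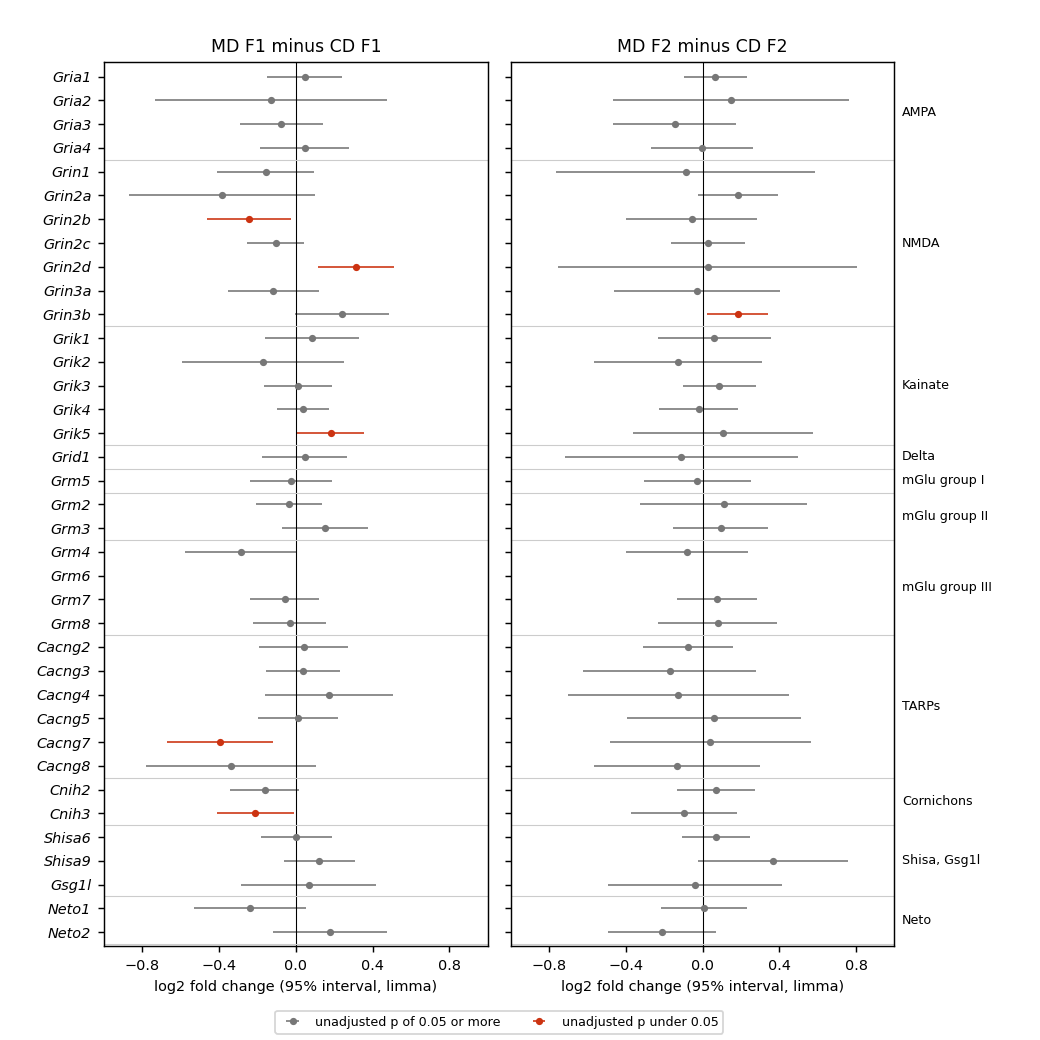
Diet effect on each of the glutamate receptor genes in F1 (left) and F2 (right), as log2 fold change of MD over CD with its 95% interval from limma, for the brightest probe of each gene and 6 arrays per group. Red marks an unadjusted p under 0.05, reached by 5 genes in F1 and 1 in F2, none of which passed an FDR of 0.1. Grm6, not above background, is left blank.

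Among the AMPA receptor subunits no diet effect was detected. Gria1 encodes GluA1, the subunit inserted into synapses during potentiation. Its log2 signal was 14.74, 14.90 and 14.98 (lowest, median and highest array) in CD F1 and 14.67, 14.94 and 15.13 in MD F1. The corresponding values were 13.61, 13.74 and 14.01 in CD F2 and 13.71, 13.86 and 13.94 in MD F2. The groups overlapped in both generations, and the difference was 0.05 in F1 (95% interval -0.15 to 0.24) and 0.07 in F2 (-0.10 to 0.23). Gria2 encodes GluA2, the subunit whose edited form keeps AMPA receptors impermeable to calcium. Its signal was 13.08, 13.23 and 13.52 in CD F1 and 11.67, 13.41 and 13.54 in MD F1, where replicate 6 lay apart from the other arrays. In F2 it was 11.14, 11.79 and 12.58 in CD and 11.39, 12.18 and 12.80 in MD, with the groups overlapping. The F1 difference was -0.13 (-0.73 to 0.47) with all arrays but 0.16 without MD F1 replicate 6. Gria3 and Gria4, the remaining subunits, differed by -0.07 and 0.05 in F1 and by -0.14 and 0.00 in F2 at their brightest probes.

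Of the 7 NMDA receptor subunits at their brightest probes, Grin2b and Grin2d had an unadjusted p under 0.05 in F1. Grin3b had one in F2 and Grin2a for the difference between generations. Grin1 encodes GluN1, which every NMDA receptor contains. Its signal was 6.70, 6.73 and 7.13 in CD F1 and 6.33, 6.67 and 6.91 in MD F1, and the groups overlapped. In F2 the values were 8.89, 9.95 and 10.17 in CD and 8.98, 9.43 and 10.39 in MD. The difference was -0.16 in F1 (-0.41 to 0.10) and -0.09 in F2 (-0.76 to 0.59), and the signal of this probe stood far higher on all F2 arrays than on all F1 arrays, with each generation normalised on its own.

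Grin2a encodes GluN2A, which becomes more prominent as synapses mature. Its signal was 12.90, 13.36 and 13.60 in CD F1 and 11.88, 13.03 and 13.36 in MD F1, with replicate 6 the lowest and the others at 12.93 or above. Its F2 signal was 12.10, 12.22 and 12.44 in CD and 12.21, 12.44 and 12.66 in MD. The effect was -0.39 in F1 (limma, FDR 0.435) and 0.19 in F2 (FDR 0.909), and their difference was -0.57 (unadjusted p = 0.0305, limma FDR 0.549). Without MD F1 replicate 6 the F1 effect was -0.18 and the difference -0.37, at an unadjusted p of 0.034 from limma. The F1 effect was 0.02 once the sex measure entered the fit as a covariate.

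Grin2b encodes GluN2B, which predominates early in development and slows the closing of the receptor. Its signal was 11.72, 11.90 and 12.04 in CD F1 and 11.39, 11.62 and 12.03 in MD F1. Most MD F1 arrays lay below the CD F1 arrays, but the highest MD F1 array reached almost the top of the CD range. The F1 difference was -0.24 (-0.46 to -0.02, limma FDR 0.311), within slides between -0.45 and 0.02. Without MD F1 replicate 6 it was -0.19, at an unadjusted p of 0.0667 (limma). In F2 the signal was 12.53, 13.15 and 13.38 in CD and 12.77, 12.94 and 13.26 in MD, a difference of -0.06 (-0.40 to 0.29). This probe was the brighter one in F2, whereas the second Grin2b probe, given below, was the brighter on every F1 array.

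Grin2d encodes GluN2D, which in the adult hippocampus is largely a subunit of interneurons. Its signal was 6.49, 6.60 and 6.80 in CD F1 and 6.76, 6.88 and 7.17 in MD F1. The groups touched only at the lowest MD F1 arrays. The F1 difference was 0.31 (0.12 to 0.51, limma FDR 0.213), positive within each of the 3 slides (0.16 to 0.41), and 0.20 with the sex measure as a covariate. In F2 the signal varied more, with 5.85, 7.38 and 7.60 in CD and 6.28, 7.002 and 7.73 in MD, and the difference was 0.03 (-0.75 to 0.80).

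Grin3b encodes GluN3B, a subunit that lowers the calcium permeability of the receptor. Its signal was 6.54, 6.66 and 6.96 in CD F1 and 6.66, 6.90 and 7.26 in MD F1. In F2 it was 5.51, 5.63 and 5.80 in CD and 5.69, 5.81 and 5.95 in MD, and 5 of 6 arrays of each F2 group were well above background. MD arrays were mostly above CD arrays in each generation, with overlap in both. The difference was 0.24 in F1 (-0.01 to 0.48, limma FDR 0.353) and 0.18 in F2 (0.02 to 0.34, FDR 0.89), and it was positive within every slide of both generations. Without MD F1 replicate 6, CD F2 replicate 6 and MD F2 replicate 3 it was 0.17 in both. The unadjusted p in F2 was 0.0268 and became 0.0651 (limma) without those arrays. Grin2c and Grin3a differed by -0.11 and -0.12 in F1 and by 0.03 and -0.03 in F2, and the F1 value of Grin3a was -0.02 without MD F1 replicate 6.

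**Figure D2:**
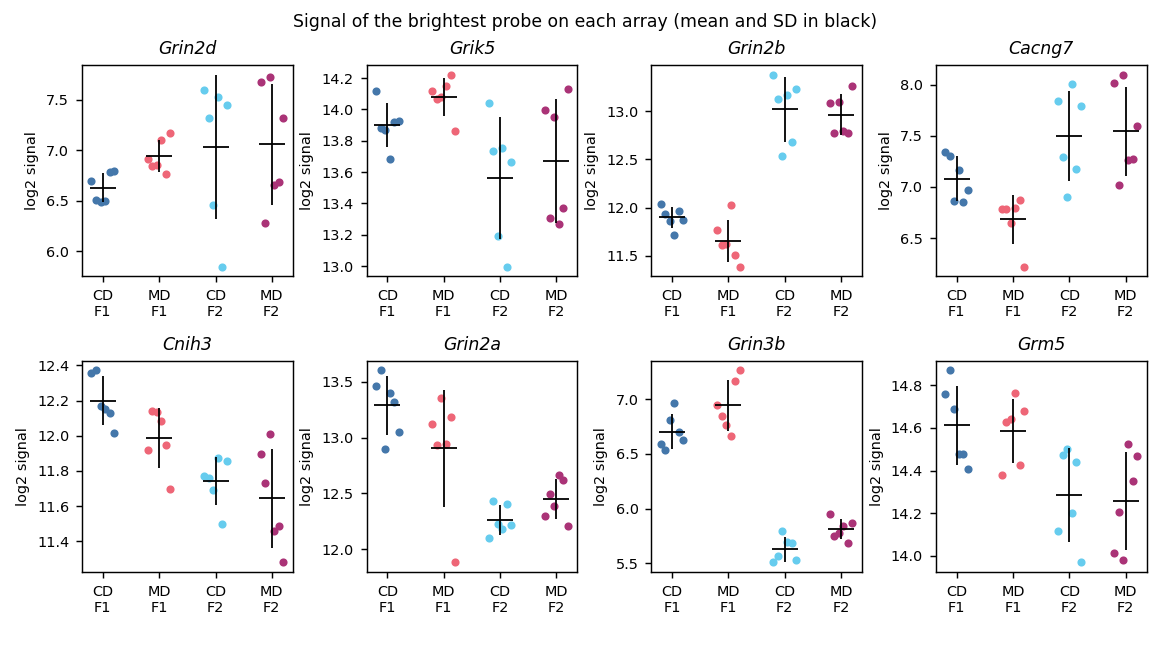
Log2 signal of the brightest probe on each array (points) with the mean and SD of the 6 arrays (black) for the genes with an unadjusted p under 0.05 in any comparison and for Grm5, the most studied group I metabotropic receptor gene. Each panel has its own vertical axis. The MD F1 points of Grin2d and Grik5 lie mostly above CD F1, those of Grin2b, Cacng7 and Cnih3 mostly below, and the lowest Grin2a point in MD F1 is replicate 6.

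Of the kainate receptor subunits, only Grik5 differed at an unadjusted p under 0.05. Grik5 encodes GluK5, a high-affinity subunit that needs a partner subunit to form a channel. Its signal was 13.69, 13.90 and 14.12 in CD F1 and 13.86, 14.10 and 14.22 in MD F1. Most MD F1 arrays lay above most CD F1 arrays. The ranges overlapped through CD F1 replicate 1 (14.12) and MD F1 replicate 6 (13.86). The difference was 0.18 (0.01 to 0.36, limma FDR 0.333), positive within each slide (0.07 to 0.25), with an unadjusted p of 0.0558 when the slide was a block. In F2 the signal was 12.997, 13.70 and 14.04 in CD and 13.27, 13.66 and 14.13 in MD, and the difference was 0.11 (-0.36 to 0.58).

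Grik2 encodes GluK2, a core kainate subunit of hippocampal neurons. Its signal was 8.94, 9.19 and 9.43 in CD F1 and 8.07, 9.18 and 9.35 in MD F1, where again replicate 6 was lowest. On the F2 arrays it was 7.39, 7.98 and 8.50 in CD and 7.48, 7.85 and 8.35 in MD. The difference was -0.17 in F1, 0.02 without MD F1 replicate 6, and -0.13 in F2. Grik1, Grik3 and Grik4 differed by 0.08, 0.01 and 0.04 in F1 and by 0.06, 0.09 and -0.02 in F2. Grid1, which encodes a delta receptor that organises synapses, differed by 0.05 and -0.11. The kainate receptor partners Neto1 and Neto2 differed by -0.24 and 0.18 in F1 and by 0.01 and -0.21 in F2, without a p under 0.05. The F1 value of Neto1 was -0.12 without MD F1 replicate 6.

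None of the metabotropic receptors had an unadjusted p under 0.05 (limma) at its brightest probe. Grm5 encodes mGluR5, a group I receptor that couples to calcium release and to synaptic depression. Its signal was 14.41, 14.58 and 14.87 in CD F1 and 14.38, 14.64 and 14.76 in MD F1. The F2 values were 13.97, 14.32 and 14.50 in CD and 13.98, 14.28 and 14.52 in MD. The groups coincided closely, with a difference of -0.03 in F1 (-0.24 to 0.19) and -0.03 in F2 (-0.31 to 0.25). The group II receptors Grm2 and Grm3, which dampen transmitter release, differed by -0.03 and 0.15 in F1 and by 0.11 and 0.10 in F2, and the F1 value of Grm3 was 0.10 without MD F1 replicate 6. Among group III receptors, the presynaptic receptor Grm4 differed by -0.29 in F1 (-0.58 to 0.00, limma FDR 0.346) and by -0.08 in F2. Its F1 value was -0.19 without MD F1 replicate 6, and its second probe gave 0.09 in F1 and -0.16 in F2. Grm7 and Grm8 differed by -0.06 and -0.03 in F1 and by 0.08 in F2 in both cases. Grm6, the receptor of retinal bipolar cells, was well above background on 1 of 24 arrays and is given no fold change.

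The auxiliary subunits of AMPA receptors included 2 further genes with small p-values. Cacng7 encodes TARP gamma-7. Its signal was 6.85, 7.07 and 7.34 in CD F1 and 6.22, 6.78 and 6.88 in MD F1. The MD F1 arrays lay below most CD F1 arrays, and the groups touched near the lower CD values. The difference was -0.40 (-0.67 to -0.12, limma FDR 0.235), negative within each slide (-0.64 to -0.09), and -0.30 without MD F1 replicate 6. With the sex measure in the fit it was -0.22, at an unadjusted p of 0.0973. In F2 the signal was 6.90, 7.54 and 8.01 in CD and 7.02, 7.43 and 8.10 in MD, a difference of 0.04 (-0.48 to 0.56).

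Cnih3 encodes a cornichon, which slows the deactivation of AMPA receptors. Its signal was 12.01, 12.16 and 12.37 in CD F1 and 11.70, 12.02 and 12.14 in MD F1. The upper MD F1 arrays fell within the CD F1 range. The difference was -0.21 (-0.41 to -0.01, limma FDR 0.328), negative within each slide (-0.33 to -0.05), and -0.15 without MD F1 replicate 6, at an unadjusted p of 0.0758. In F2 the signal was 11.50, 11.77 and 11.87 in CD and 11.28, 11.61 and 12.01 in MD, and the difference was -0.10 (-0.37 to 0.18).

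Cnih2 encodes the cornichon that is abundant in hippocampal pyramidal cells. Its signal was 16.40, 16.48 and 16.81 in CD F1 and 16.19, 16.36 and 16.55 in MD F1. In F2 it was 16.46, 16.76 and 16.95 in CD and 16.67, 16.77 and 16.99 in MD. The groups overlapped in both generations, and the difference was -0.16 in F1 (-0.34 to 0.02) and 0.07 in F2 (-0.13 to 0.27). Cacng8 encodes TARP gamma-8, the TARP characteristic of the hippocampus. Its signal was 9.18, 9.30 and 9.69 in CD F1 and 8.18, 9.12 and 9.64 in MD F1. In F2 it was 8.59, 9.38 and 9.57 in CD and 8.84, 8.91 and 9.60 in MD. The difference was -0.34 in F1 (-0.78 to 0.10), -0.17 without MD F1 replicate 6, and -0.13 in F2 (-0.56 to 0.30).

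The other TARPs, Cacng2 (stargazin), Cacng3, Cacng4 and Cacng5, differed by 0.04, 0.04, 0.17 and 0.01 in F1 and by -0.08, -0.17, -0.13 and 0.06 in F2, and the F1 value of Cacng4 was 0.07 without MD F1 replicate 6. The Shisa family and Gsg1l act on the desensitisation of AMPA receptors. At the brightest probes, Shisa9 had the largest F2 estimate of the 37 genes, 0.37 (-0.02 to 0.76, limma FDR 0.898). Its F1 value was 0.12, or 0.07 without MD F1 replicate 6. Shisa6 differed by 0.00 and 0.07 and Gsg1l by 0.07 and -0.04 in F1 and F2. The second Gsg1l probe gave 0.17 in F1 and 0.37 in F2.

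Probes for the same gene did not always give the same diet effect. The second probe of Grin2b measured 12.79, 13.17 and 13.41 in CD F1 and 11.50, 12.69 and 12.83 in MD F1, a difference of -0.63 (limma FDR 0.248) where the brightest probe gave -0.24. In F2 this probe differed by 0.13, and the effects differed between the generations by -0.74 (unadjusted p = 0.00339, limma FDR 0.388). Both Grin2b probes were thus lower in MD F1, by unequal amounts. The second was the brighter of them on every F1 array, with a mean of 13.10 against 11.90 in CD F1. It was lower in MD within each F1 slide (-1.03 to -0.29). The second probe of Grin2a gave -0.85 in F1 (limma FDR 0.247) against -0.39 for the brightest, and remained at -0.59 without MD F1 replicate 6. The second probe of Gria3 gave -0.33 (limma FDR 0.213) against -0.07, negative within each slide. Some other second probes differed in sign from the brightest, none of these at an unadjusted p under 0.05 (limma). Neto2 gave -0.15 in F1 against 0.18, and Gria4 -0.18 against 0.05. In F2, Gria2 gave -0.20 against 0.15 and Gsg1l 0.37 against -0.04. Grik3, dim at this probe, gave -0.34 against 0.01 in F1 and -0.07 against 0.09 in F2. The second probes of Grik2 and Cnih2 kept the sign of the brightest, with -0.37 and -0.09 in F1 and -0.07 and 0.15 in F2.

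Grm5 had 3 probes, and these disagreed in direction. Its second probe measured 10.37, 10.51 and 10.71 in CD F1 and 8.49, 10.04 and 10.42 in MD F1, and 10.89, 11.25 and 11.54 in CD F2 and 10.37, 10.64 and 11.20 in MD F2. It was lower in MD in both generations, by -0.67 in F1 (unadjusted p = 0.0302, limma FDR 0.306) and by -0.50 in F2 (unadjusted p = 0.0188, FDR 0.89), and within all 3 slides of each generation. The third probe gave 0.14 in F1 and 0.24 in F2. Which transcripts the 3 probes detect was not examined. Of all 51 probes, 9 had an unadjusted p under 0.05 in F1, against 14.5% of the probes of the array, and 2 in F2, against 5.56%. For the difference between generations there were 4, against 8.21% of the probes, namely both Grin2a probes and the second probes of Grin2b and Cnih2 (-0.23 for Cnih2, limma FDR 0.497). None of the 51 was called in any of these comparisons.

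**Figure D3:**
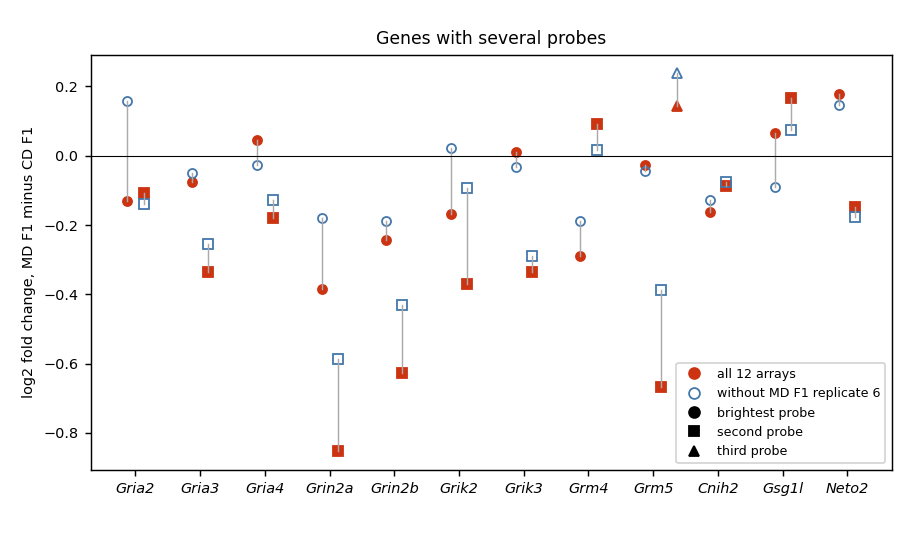
Diet effect in F1 (log2 fold change, vertical axis) for each probe of the genes with several probes, with all 12 F1 arrays (filled) and without MD F1 replicate 6 (open), where a line joins the estimates of a probe. The second Cacng2 probe, above background on no array, is left out. The second probes of Grin2a, Grin2b and Grm5 gave the lowest estimates, -0.85, -0.63 and -0.67, and moved to -0.59, -0.43 and -0.39 without that array.

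MD F1 replicate 6 was the array on which the largest number of members departed from their group, 5 of the 37 genes by a Dixon test. It was the lowest MD F1 array for Gria2 at 11.67, where the others spanned 13.19 to 13.54, and for Grik2 at 8.07, where the others spanned 9.11 to 9.35. Without this array 3 of the 37 genes had an unadjusted p under 0.05 at their brightest probes, against 14.2% of all genes. Of all probes, 152 were called at an FDR of 0.1 (0.386%), none of them from a glutamate receptor gene. Some further probes had a lower unadjusted p (limma) without this array. For the second probes of Grin2a, Grin2b and Grm5, it went from 0.0103, 0.0108 and 0.0302 to 0.00384, 0.00359 and 0.005. Their estimates became smaller in size. The third Grm5 probe went from 0.14 to 0.24, and its p from 0.238 to 0.0102.

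The arrays of F2 varied more than those of F1, and they varied together. The spread within groups was larger in F2 for 28 of the 37 genes (75.7%), against 63.7% of all genes, and the median ratio of the SDs was 1.33 against 1.23. The 5 F2 arrays with the lowest Grin1 signal were CD F2 replicates 3 and 5 and MD F2 replicates 2, 4 and 5. The same 5 arrays were also the lowest for Grin2b, Grin2d, Grik5, Grid1, Grm2, Cacng3, Cacng4 and Cacng7. These are 8 of the other 36 genes (22.2%), against 4.97% of all genes. At least 4 of these arrays were among the 5 lowest for 15 of the 37 genes, Grin1 included (40.5%, against 16.1% of all genes). At least 4 were among the 5 highest for Gria2, Gria3, Grin2a, Grm7, Cacng2 and Neto2 (16.2%, against 16.5%). No member had all of them as its 5 highest, as 2.49% of all genes did. The order was noticed in the data and is given as a description. It crossed the diet groups, and included both codes (lh and rh) that the F2 labels carry.

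**Figure D4:**
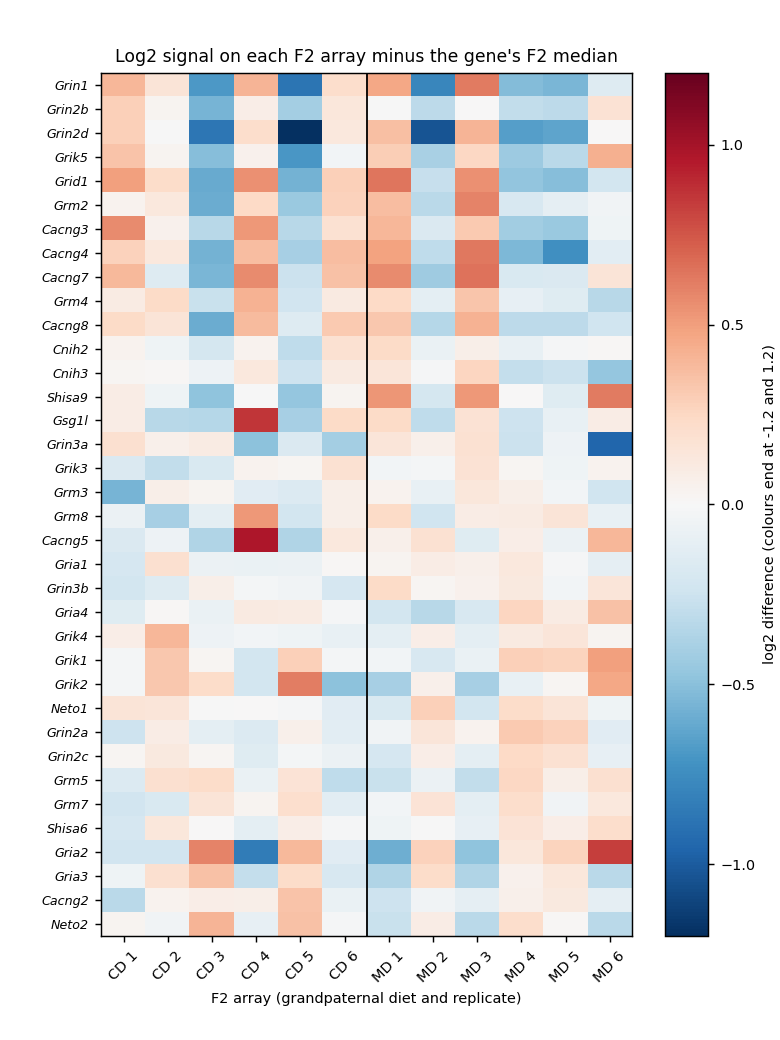
Log2 signal of each glutamate receptor gene except Grm6 on each of the 12 F2 arrays, minus the median of that gene over these arrays (colour, ending at -1.2 and 1.2). Genes are sorted by how many of the 5 arrays lowest for Grin1 were also among their 5 lowest, less those among their 5 highest. Blue columns at CD 3, CD 5, MD 2, MD 4 and MD 5 run through the upper rows and turn red in the lowest rows.

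The median intensity of CD F2 replicates 1 to 6 was 250, 242, 262, 151, 199 and 173, and that of MD F2 replicates 1 to 6 was 187, 262, 148, 228, 220 and 151. Its part in the shared order was not tested. Of the 5 arrays named, CD F2 replicates 3 and 5 were high in Xist and the other 3 in Ddx3y. The mean level of 6 oligodendrocyte markers was 14.39 and 14.32 on CD F2 replicates 3 and 5. On MD F2 replicates 2, 4 and 5 it was 14.47, 14.44 and 14.44. It was 14.26 on MD F2 replicate 6 and ranged from 14.69 to 14.93 on the remaining F2 arrays. The part of oligodendrocyte content in the shared order was not tested.

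The 9 genes with this order were also all higher in CD F2 than in CD F1 when the 24 arrays were normalised together, by a median of 1.60 (log2). Grin1, which defined the order, is counted among these 9, so the values are a description of a set chosen through it. Among all genes that shared the order, 90.7% of 972 were higher in CD F2, against 51.9% of all genes. Grin1 was 3.24 higher, a difference larger than that of 99.9% of all genes, followed by Cacng4 at 2.19, Grid1 at 1.83, Grin2b at 1.61 and Cacng3 at 1.60. Grm4, whose 5 lowest F2 arrays were not all the same, was 1.52 higher. Grik2 and Gria2 were lower in CD F2 by -0.92 and -0.86. Generation and scan day cannot be told apart, since the generations shared no slide and were scanned on different days, and so no test is given. The sex and genetic background of the pools also differed between the generations. On every CD F1 array Xist was 10.80 or above and Ddx3y 9.999 or above, whereas F2 arrays were of a single sex. F2 animals were not genetically uniform. The probes of Grin2b went opposite ways, from a mean of 11.90 in CD F1 to 13.02 in CD F2 at the brightest probe and from 13.10 to 11.58 at the second, each generation normalised on its own.

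**Figure D5:**
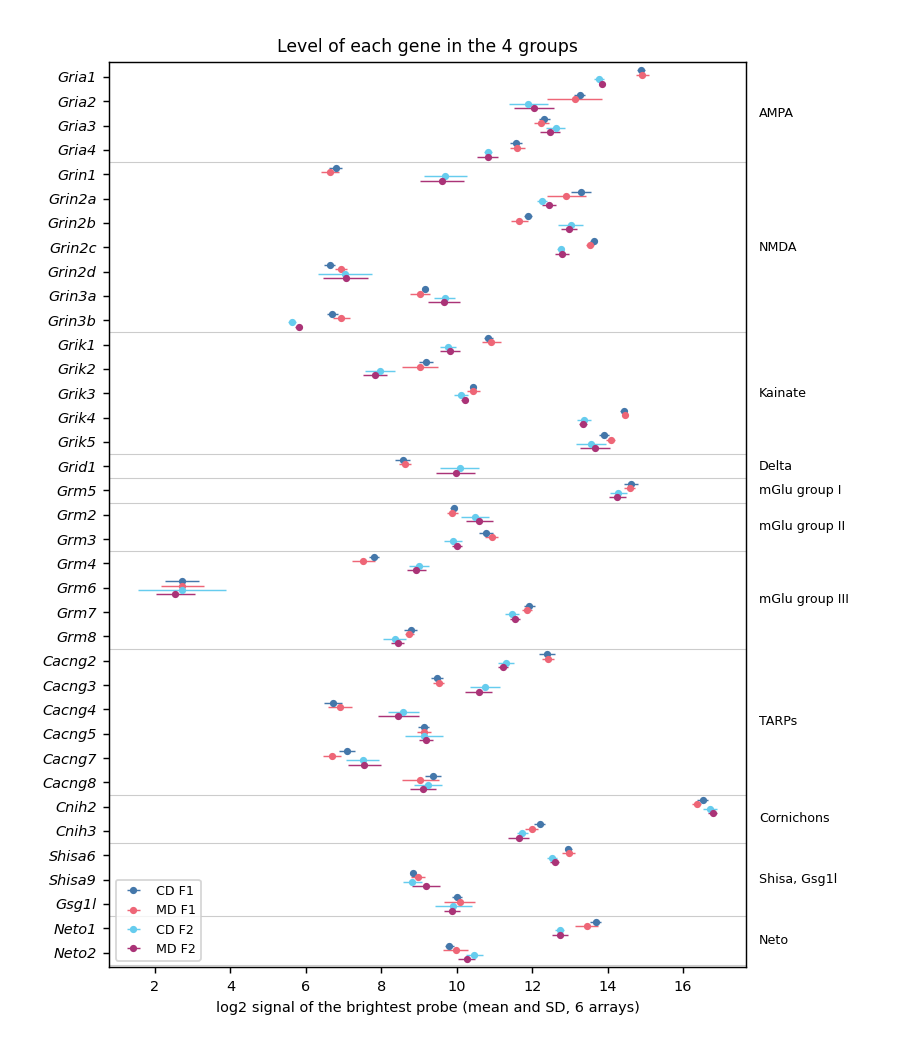
Log2 signal of the brightest probe of each gene (mean and SD of 6 arrays) in the 4 groups, with each generation normalised on its own and genes ordered by receptor class. Probes differ in brightness, so positions are to be read along a row and not between rows. The F1 and F2 points of Grin1, Cacng4 and Grid1 stand farthest apart, while CD and MD points of a generation lie close together in nearly all rows.

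For Grm2, one of the 9 genes with the shared array order, the RefSeq promoter window begins at the outer end of the annotated gene, and the 250 bases before the start are shown for that reason, on the strand of the gene, in the mouse build GRCm38.p6. They lie at chr9:106656110-106656359 (minus strand). Capitals mark CG, the dinucleotide at which mammalian DNA is methylated and which reads alike on both strands.
Grm2: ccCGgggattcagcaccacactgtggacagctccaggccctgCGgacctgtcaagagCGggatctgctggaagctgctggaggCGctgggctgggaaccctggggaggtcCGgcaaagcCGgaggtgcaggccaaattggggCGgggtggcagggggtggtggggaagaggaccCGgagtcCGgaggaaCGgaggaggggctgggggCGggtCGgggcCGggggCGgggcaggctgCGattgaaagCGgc

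The Grm2 window held 16 CG, and 25.4% of 32851 windows of this length held at least as many, while the median window held 6. No methylation was measured here.

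Among 54 other genes of the glutamate synapse (transporters, glutamate and D-serine metabolism, scaffolds, trafficking proteins, kinases and RNA editing enzymes), none was called in either generation. In F1, 10 of 54 had an unadjusted p under 0.05, of which 4 were higher and 6 lower, against 13.6% of all genes. Their median difference was -0.06, against 0.02 for all genes. Of the 54 genes, 40 were negative, against 8733 of all 19751 genes. Several cell type marker lists leaned the same way in F1, with 10 of 12 hippocampal field markers negative (median -0.13), 5 of 7 interneuron (-0.10), 5 of 5 astrocyte (-0.10) and 5 of 6 oligodendrocyte markers (-0.14). Others did not, with 4 of 8 striatum and 3 of 5 microglia markers positive, and all 6 motile cilia and all 6 choroid plexus genes positive. In the remaining lists, 4 of 7 thalamus (median -0.21) and 3 of 5 neocortex markers (-0.03) were negative. So were 2 of 4 cerebellum (-0.12) and 2 of 2 oligodendrocyte precursor markers (-0.12). The part of cell type content in the synapse gene values was not tested. Nsf, the ATPase that recycles SNARE complexes and binds GluA2, measured 16.10, 16.21 and 16.42 in CD F1 and 15.57, 15.88 and 16.03 in MD F1. All its MD F1 arrays lay below all CD F1 arrays (-0.36, limma FDR 0.194), as for 0.754% of all genes. The vesicular transporter Slc17a8 differed by -0.30 and the astrocytic glutamate transporter Slc1a2 by -0.61. The editing enzyme homologue Adarb2 differed by -0.44, and Dao, which degrades D-serine, by 0.85, each with a limma FDR of at least 0.205. Dao measured 5.21, 5.48 and 5.74 in CD F1 and 5.66, 6.18 and 7.72 in MD F1. Its groups overlapped, and its highest MD F1 array lay far above the MD F1 median.

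In F2, 2 of the 54 genes had an unadjusted p under 0.05, against 5.59% of all genes, and both were higher. Dlg4 encodes PSD-95, the scaffold that anchors AMPA receptor complexes through TARPs. It measured 11.25, 11.39 and 11.9999 in CD F2 and 11.25, 12.42 and 13.88 in MD F2, a difference of 1.03 (limma FDR 0.89). The MD F2 arrays covered a far wider range and overlapped the CD F2 arrays at the low end. Camk2a, the kinase central to potentiation, differed by 0.27 (limma FDR 0.89). Adarb2, Ppp3r1 (a calcineurin subunit) and Abhd6 (a lipase that limits AMPA receptor delivery) followed with -0.47, 0.19 and 0.12.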

How the data were processed

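Hippocampal gene expression was measured on 24 Agilent 1-colour arrays (6 slides, 4 arrays each, CD and MD balanced within every slide). The authors deposited Feature Extraction output (header version 10.7.3.1) whose processed intensity, used here, is linear and background-subtracted, without scaling across arrays. Their normalised value table, also deposited as intensities, served as an alternative. Spots marked irregular were left out (1939 in F1, 2097 in F2), and log2 values of a probe's spots were averaged. Arrays were quantile-normalised within each generation, or all 24 together to compare generations. The F2 fit left out 6 probes that had fewer than 2 values in a group. Group means were fitted with limma 3.58.1 in R 4.3.3 over all probes, with Benjamini-Hochberg adjustment and an FDR threshold of 0.1. Intervals are at 95%. The fit was tested on simulated data. Of 39429 probes, 26055 matched a symbol through their identifiers. Each gene was read from the probe with the highest mean over all arrays. Promoter windows were found for 23 of 37 genes, some of which are not reported here.

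The 37 genes and the lists were chosen with earlier results of these data known. Values were given for every member with an unadjusted p under 0.05 in any comparison and for Gria1, Gria2, Grin1, Grin2a, Grin2b, Grik2, Grm5, Cacng8 and Cnih2, and, of other synapse genes, the 5 with the smallest p per generation. Further probes, the F2 array order and the promoters were chosen after values were seen. Alternatives were 75th percentile scaling, normexp background correction (offset 50), a filter on dim probes, irregular spots kept, quantile normalisation before averaging, slide, replicate number or F2 label code as a block, a sex covariate, the authors' table, the mean over probes, all 24 arrays in one fit, an FDR of 0.05, leaving out MD F1 replicate 6, CD F2 replicate 6 and MD F2 replicate 3, and leaving out each array in turn. Pools are the replicates, so p-values measure the spread between pools.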

Additional observations from a re-analysis of the deposited data

Results flagged for a closer look

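In 10 of 148 sets of 6 arrays (37 genes in 4 groups), the highest or lowest array lay farther from the rest than a Dixon test allows, where about 7.4 would by chance. Of these, 5 fell on MD F1 replicate 6, which was low for Gria2 (11.67), Grin2a (11.88), Grik2 (8.07) and Cacng7 (6.22) and high for Gsg1l (10.85). The others were Grin1 on CD F1 replicate 6 (7.13, high), Cnih2 on CD F1 replicate 5 (16.81, high), Grik4 on CD F2 replicate 2 (13.72, high), Grm3 on CD F2 replicate 1 (9.46, low) and Cacng5 on CD F2 replicate 4 (10.07, high). All are log2 signals of the brightest probe.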

How the results depend on the processing

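No glutamate receptor or other synapse gene was called under any alternative that was run, and the lowest FDR at the brightest probe of a receptor gene under any of them was 0.167 in F1, 0.453 in F2 and 0.446 for the difference between generations (limma). Among the other probes, the second Gria3 probe had an FDR of 0.157 and the second Grin2b probe 0.163 in F1 without MD F1 replicate 6, and the second Grin2b probe had an FDR of 0.388 for the difference over all arrays. The sign of the diet effect was the same under all alternatives for 17 of 37 receptor genes in F1, 20 in F2 and 19 for the difference. The count of receptor genes at an unadjusted p under 0.05 in F1 was 5, and became 3 with the slide as a block, 3 with the replicate block, 3 without the arrays that stand apart, 2 with the sex covariate and 2 with all 24 arrays in one fit. It ranged from 2 to 7 when single arrays were left out (2 without CD F1 replicate 2, 3 without CD F1 replicates 1 or 5 or MD F1 replicates 2 or 6). The median F1 effect became -0.053 with the sex covariate. In F2 the count was 1, and became 2 with the slide block, 0 with the replicate block, 0 without the arrays that stand apart, and 0 to 2 when single arrays were left out (0 without CD F2 replicates 1 or 6 or MD F2 replicate 1, 2 without MD F2 replicates 2, 5 or 6). For the difference it was 1, and became 2 with normexp, an alternative chosen after seeing the data, 3 with the mean over probes and 0 to 2 with single arrays left out, 0 only without CD F1 replicate 2. Of the other synapse genes, the F1 count was 10 and became 6 with the sex covariate. Their F2 count was 2 and became 4 with percentile scaling, the slide block, the sex covariate and all 24 arrays in one fit, and ranged from 2 to 4 with single arrays left out (4 without CD F2 replicate 5), while their F2 median of -0.04 became 0.0108 with percentile scaling and ranged from -0.0444 to 0.00539 (without CD F2 replicate 1). The cause of these shifts was not tested. Replicate numbers did not pair the samples (correlations of deviations from -0.17 to 0.20), and the replicate block changed no call. Normexp on mean signals was not run, as median signals were used. The number of arrays limited the precision, and Grm6 and the second Cacng2 probe lay at background.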
